A study of Rattus norvegicus with 12 samples.

Results

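Matricellular proteins are secreted into the extracellular matrix, where they act on cells and on matrix assembly rather than as lasting structural elements. The set described here named 10 genes: periostin (Postn), the tenascins Tnc and Tnn, the thrombospondins Thbs1 and Thbs2, Sparc and its relative Sparcl1, and the CCN proteins Ccn1, Ccn2 and Ccn5. Members were the probe sets whose only gene symbol in the platform annotation was one of these 10. This gave 9 of the 15923 probe sets on the array, for 8 of the 10 genes (the annotation names 10412 genes by such probe sets), with 2 probe sets for Sparc; Thbs1 and Thbs2 matched no probe set and were not analysed here. Of the 9, 8 probe sets of 7 genes passed the filter on dim signals and were tested, and the Ccn1 probe set did not pass.

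The samples were rat ventricles, with 12 arrays in 4 groups of 3, labelled as separate rats. In IR rats the left anterior descending coronary artery (LAD) was tied for 30 min and then reperfused, and the ventricle was collected at 2 d or 7 d. In sham rats of the same days the artery was not tied. The strain, sex and age of the rats, and whether the sampled ventricle was injured or remote wall, are not stated in the labels.

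In heart muscle, many matricellular genes are low in the resting adult wall and are switched on after injury. Periostin and the tenascins are made mainly by activated fibroblasts, bind integrins and steer collagen assembly and cell attachment. SPARC binds collagen and helps its fibrils mature, and thrombospondin-1 (Thbs1) can activate latent TGF-beta. The CCN genes Ccn1 and Ccn2 are induced quickly by TGF-beta, stretch and the YAP-TEAD transcription factors.

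Promoter sequences are shown for 5 members because they divide into genes with and without the letters read by TEAD factors, the textbook regulators of Ccn2. RefSeq promoters of assembly GRCr8 were found for 8 of the 10 members, and each line gives the 250 bases before the gene start, 5′ to 3′ on the gene's strand. Capitals mark GGAATG, or CATTCC where the letters lie on the other strand. The order carries no grouping by response. The positions are chr1:22624615-22624864 (minus strand) for Ccn2, chr5:82476132-82476381 (minus) for Tnc, chr2:140677811-140678060 (plus) for Postn, chr10:40038817-40039066 (minus) for Sparc and chr13:74919790-74920039 (minus) for Tnn.
Ccn2: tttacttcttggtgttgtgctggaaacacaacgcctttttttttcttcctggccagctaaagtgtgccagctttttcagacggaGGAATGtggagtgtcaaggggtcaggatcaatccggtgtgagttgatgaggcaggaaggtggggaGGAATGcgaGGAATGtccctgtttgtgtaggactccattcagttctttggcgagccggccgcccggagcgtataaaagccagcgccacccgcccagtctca
Tnc: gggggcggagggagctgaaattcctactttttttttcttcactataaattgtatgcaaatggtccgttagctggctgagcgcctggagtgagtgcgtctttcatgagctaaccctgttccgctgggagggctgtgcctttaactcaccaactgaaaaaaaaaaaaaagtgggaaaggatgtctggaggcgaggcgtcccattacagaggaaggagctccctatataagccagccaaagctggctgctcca
Postn: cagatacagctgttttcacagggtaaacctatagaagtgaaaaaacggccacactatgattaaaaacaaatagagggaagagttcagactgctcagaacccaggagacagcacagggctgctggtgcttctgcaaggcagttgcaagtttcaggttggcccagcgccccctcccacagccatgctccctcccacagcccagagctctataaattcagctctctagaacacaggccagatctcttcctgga
Sparc: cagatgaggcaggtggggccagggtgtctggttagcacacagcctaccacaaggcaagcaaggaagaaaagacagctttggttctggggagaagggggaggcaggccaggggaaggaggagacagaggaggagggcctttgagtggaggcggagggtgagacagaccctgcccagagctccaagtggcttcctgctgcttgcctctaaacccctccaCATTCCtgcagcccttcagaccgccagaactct
Tnn: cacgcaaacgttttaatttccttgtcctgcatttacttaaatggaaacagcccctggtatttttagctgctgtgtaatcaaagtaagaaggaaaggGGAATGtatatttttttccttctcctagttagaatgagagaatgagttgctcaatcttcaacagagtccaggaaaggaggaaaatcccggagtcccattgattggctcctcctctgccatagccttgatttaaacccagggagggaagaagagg

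The Ccn2 promoter held GGAATG in 3 places, starting 166, 101 and 92 bases before the gene start. Sparc held CATTCC once, 33 bases before the start, and Tnn held GGAATG once, at 154 bases. Ccn1 (113 bases before the start) and Thbs1 (47 bases) each held it once, and the windows of Postn, Tnc and Sparcl1 did not hold these letters. Of 33469 rat promoters of this length, 12.1% held the letters on either strand, and 0.0807% held them 3 or more times. TATAAA, a form of the core promoter TATA box, began 31 bases before the start in Ccn2, 34 in Ccn1 and 44 in Postn. In Tnc these exact letters lay 208 bases before the start, and 12.9% of all these promoters held them on either strand. Near its end the Tnc window also reads tatataag, a similar run that the search for TATAAA did not count. TGANTCA, the AP-1 letters, was in none of the 8 windows, against 6.34% of all promoters. These matches describe letters and were not tested against the expression values.

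The arrays were unlike within 2 groups. The first principal component of all tested probe sets placed 2 d IR replicate 69 at 18.3, apart from the other arrays of its group (-4.11 and 0.18). It placed replicate 82 of the 7 d sham rats at -23.6, apart from -1.06 and -1.14 in the rest of that group. For the members, results that rest on these or other single arrays are given with and without them. For the gene lists, the calls of named genes that were lost without 1 array are given. The labelled tissue was checked on 14 cardiomyocyte markers, all of which were tested, with a summed signal of 473377 to 760257 per array. Throughout, signals are the authors' MAS5 intensities on a linear scale, log2 changes are on the log2(signal + 195) scale, and "called" means an adjusted p under 0.05 in limma over all 10527 probe sets tested. Counts at an unadjusted limma p under 0.05 are given without the share of all probe sets at that threshold. They therefore cannot be read as a result about the members or a list.

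**Figure D1:**
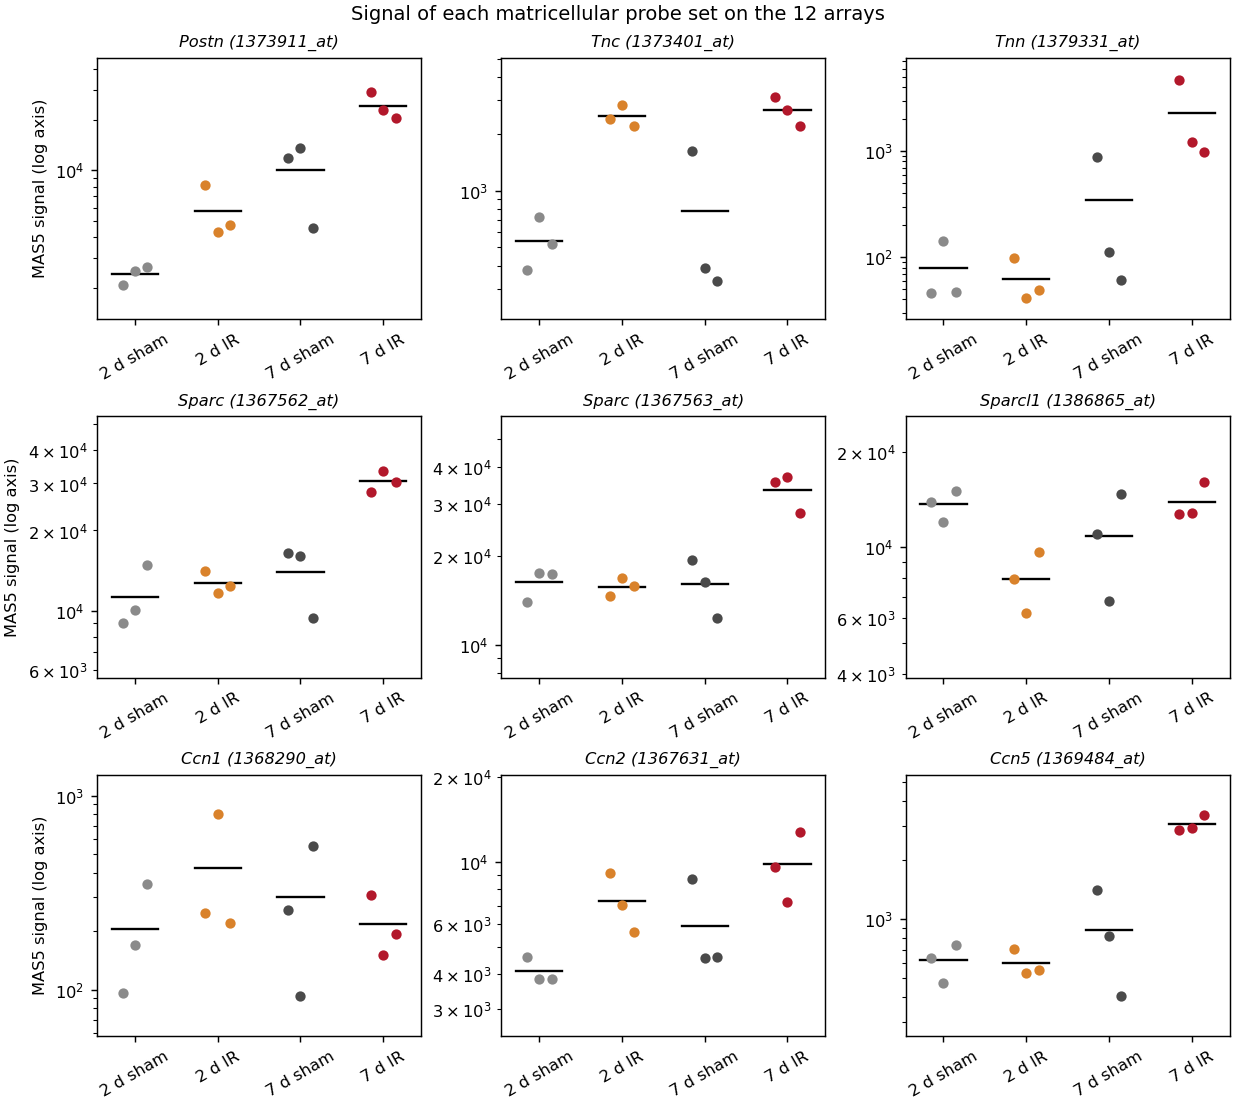
The MAS5 signal (log axis) of the 9 matricellular probe sets is plotted for every array, with each group's mean as a line. Postn, Tnn, Sparc and Ccn5 read higher on all 3 arrays of 7 d IR than on any other array. Tnc is raised in IR at both days, and Postn also reads higher in all 3 sham rats of 7 d than in those of 2 d.

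Periostin is an integrin-binding protein that crosslinks collagen and marks activated fibroblasts. Its probe set (1373911_at) read 2067.6, 2491.8 and 2663.9 in the 2 d sham rats and 8133, 4304.5 and 4724.5 in the 2 d IR rats. At 7 d it read 11855.7, 13655.2 and 4519.5 in sham rats (replicates 80, 81 and 82) and 29200.8, 22747.2 and 20564.2 in IR rats. The 4 groups therefore stepped upwards, with no overlap between IR and sham at either day and with 2 of the 3 sham rats at 7 d above every IR rat at 2 d.

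At 7 d, Postn rose 2.61-fold with IR, a log2 change of 1.38 (SE 0.32, adjusted p = 0.0161). Leaving out 7 d sham replicate 82 lost the call (0.90, adjusted p = 0.0539), as did leaving out 7 d IR replicate 44 (1.24, adjusted p = 0.0643). At 2 d the change was 1.14 (SE 0.32) and did not pass (adjusted p = 0.0699), although it passed without 7 d sham replicate 82 (adjusted p = 0.0116); that array is not in the comparison but enters the shared estimate of the spread. From 2 d to 7 d Postn rose 4.24-fold within IR rats (2.08, SE 0.32, adjusted p = 0.00232). Within sham rats the same step was 1.83 (SE 0.32), short of the threshold (adjusted p = 0.0527), and it passed once 7 d sham replicate 82 (2.32, adjusted p = 0.000148) or 2 d IR replicate 69 (adjusted p = 0.0394) was left out. No member had a larger change between the sham days, and it ranked 8 of 10527 probe sets.

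Tenascin-C is a large hexameric glycoprotein that loosens cell attachment at wound edges. Its probe set (1373401_at) read 377.2, 727.1 and 518.5 in 2 d sham rats and 2405, 2837.2 and 2192.4 in 2 d IR rats. At 7 d it read 1611.9, 390.5 and 332.6 in sham rats and 3143.7, 2655.7 and 2185.5 in IR rats. All 6 IR arrays lay above all 6 sham arrays, and the nearest sham array was 7 d replicate 80.

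Tnc, the only member called at 2 d, rose 3.68-fold at that day (1.88, SE 0.34, adjusted p = 0.0176). Its increase at 7 d was 3.44-fold (1.78, SE 0.34, adjusted p = 0.00913). The 2 d call was lost without 2 d sham replicate 71 (1.71, adjusted p = 0.078), 2 d sham replicate 72 (2.06, adjusted p = 0.0557) or 2 d IR replicate 69 (1.90, adjusted p = 0.0968), while the change stayed between 1.52 and 2.13 under all 20 alternatives. The 7 d call held under all 20, with an adjusted p of 0.0496 at most. Between days, Tnc differed by 0.09 (95% interval -0.65 to 0.82) in IR rats and by 0.19 (-0.55 to 0.92) in sham rats, neither of which passed. In the IR hearts the level at 2 d and that at 7 d thus did not differ beyond their spread.

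Tenascin-N is a smaller family member known from bone and from tissue with dense collagen. Its probe set (1379331_at) read 46.4, 143.3 and 46.8 in 2 d sham rats and 97.3, 41.6 and 48.8 in 2 d IR rats. At 7 d it read 872.8, 112.4 and 61 in sham rats and 4707.9, 1218.9 and 991.6 in IR rats. The 6 arrays of 2 d lie under the pseudocount of 195 and under the 40th percentile of their array. The probe set passed the filter through the 7 d IR arrays and 1 sham array of that day, so its choice for testing already favoured a difference.

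At 7 d, Tnn rose 4.61-fold in IR hearts (2.20, SE 0.53, adjusted p = 0.0178), ranking 3 of 10527. The call was lost when the brightest array, 7 d IR replicate 44, was left out (1.56, adjusted p = 0.0872). It was also lost when either of the sham replicates 82 (1.82, adjusted p = 0.0854) and 81 (1.95, adjusted p = 0.0514) was. Because the 2 d readings lie below the filter, no fold from 2 d to 7 d is given for Tnn; the 7 d IR arrays read 991.6 or more, against 97.3 at most on the 2 d IR arrays. In sham rats 1 of the 3 arrays of 7 d, replicate 80, lay above the 2 d arrays. Replicate 80 was also the highest sham array of its day for Tnc, Ccn2 and Ccn5.

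SPARC, or osteonectin, is a collagen-binding protein needed for normal fibril assembly. The probe set 1367562_at read 8984.7, 10074.5 and 14878.1 in 2 d sham rats, 14122.8, 11674.9 and 12412.7 in 2 d IR rats, 16515.1, 16101 and 9405.4 in 7 d sham rats and 27799.7, 33422.8 and 30428.8 in 7 d IR rats. The other, 1367563_at, read 13976.8, 17562.7 and 17359.2 in 2 d sham, 14615.4, 16874.2 and 15780.4 in 2 d IR, 19346.3, 16381.7 and 12371.3 in 7 d sham, and 35528.1, 37184.4 and 27900.2 in 7 d IR rats. On both probe sets the 3 arrays of 7 d IR stood above the other 9, which overlapped with one another.

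At 7 d, Sparc rose 2.23-fold on 1367562_at (1.15, SE 0.20, adjusted p = 0.00726). On 1367563_at it rose 2.10-fold (1.07, SE 0.16, adjusted p = 0.00323). Both calls held under all 20 alternatives, at changes of 0.894 to 1.29. From 2 d to 7 d in IR rats it rose by 1.25 (SE 0.20, adjusted p = 0.00301) and 1.07 (SE 0.16, adjusted p = 0.00179). At 2 d IR differed from sham by 0.20 (95% interval -0.24 to 0.63) and -0.04 (-0.38 to 0.29), and the sham rats of both days by 0.29 (-0.14 to 0.73) and -0.04 (-0.37 to 0.29). None of these 4 passed, and the intervals leave out an increase as large as the one at 7 d.

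Sparcl1, or hevin, shares the SPARC fold and is made by vessel-associated cells and stromal cells of many resting tissues. Its probe set (1386865_at) read 13887.3, 12025.5 and 15088.2 in 2 d sham rats and 7967.7, 6241.2 and 9655.2 in 2 d IR rats. At 7 d it read 10997.2, 6805.9 and 14748.5 in sham rats and 12709, 12840 and 16101.9 in IR rats. It was the member that lay lower in IR at 2 d without overlap; at 7 d the groups overlapped. The difference at 2 d was -0.78 (SE 0.22) and did not pass (adjusted p = 0.0701), though it ranked among the 39 most negative of 10527. It passed without 7 d sham replicate 81 (adjusted p = 0.0356) or 82 (adjusted p = 0.0292), at the same change of -0.78. At 7 d the difference was 0.41 (95% interval -0.07 to 0.88, adjusted p = 0.249), and from 2 d to 7 d in IR rats 0.80 (SE 0.22, adjusted p = 0.0661), which passed without 7 d sham replicate 81 (adjusted p = 0.0165) or 82 (adjusted p = 0.023).

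Among the CCN proteins, Ccn2 (connective tissue growth factor) promotes matrix production downstream of TGF-beta. Its probe set (1367631_at) read 4594.2, 3854.8 and 3851.2 in 2 d sham rats, 9122.1, 7049 and 5640.4 in 2 d IR rats, 8687.9, 4559.5 and 4591.9 in 7 d sham rats and 9608.9, 7214.8 and 12745.6 in 7 d IR rats. IR lay above sham without overlap at 2 d; at 7 d sham replicate 80 lay above 1 IR array. The differences were 0.78 at 2 d (SE 0.24, adjusted p = 0.0922) and 0.74 at 7 d (SE 0.24, adjusted p = 0.0631), and neither passed. Without 7 d sham replicate 80 the 7 d difference was 1.04 and passed (adjusted p = 0.0123).

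Ccn5, also known as WISP2, lacks the C-terminal domain that the other CCN proteins carry and is described as opposing some actions of Ccn2. Its probe set (1369484_at) read 635.7, 471.1 and 740.9 in 2 d sham rats and 704.3, 529.9 and 548.1 in 2 d IR rats. At 7 d it read 1403.4, 819.7 and 405.1 in sham rats and 2840.9, 2908.6 and 3407.1 in IR rats. The 3 arrays of 7 d IR were the brightest of the 12 and lay close together, with an SD of 309 around 3052.

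Ccn5 rose 3.27-fold at 7 d (1.71, SE 0.26, adjusted p = 0.0038) and, within IR rats, 4.12-fold from 2 d to 7 d (2.04, SE 0.26, adjusted p = 0.000839). Both calls held under all 20 alternatives. At 2 d the difference was -0.03 (95% interval -0.59 to 0.52, adjusted p = 0.966), whereas Ccn2 had similar differences at both days.

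Ccn1 (CYR61), an immediate early member that triggers senescence in wound fibroblasts, was dim. Its probe set (1368290_at) read 95.8, 170.3 and 349.3 in 2 d sham rats, 246.7, 799 and 220 in 2 d IR rats, 257.9, 92.1 and 548.7 in 7 d sham rats and 308.2, 150.6 and 192.6 in 7 d IR rats. All groups overlapped, and 2 of the 12 arrays lay above their 40th percentile, too few for testing. Fitted without the filter it gave 0.55 at 2 d (SE 0.38, adjusted p = 0.524) and -0.17 at 7 d (SE 0.38, adjusted p = 0.849).

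**Figure D2:**
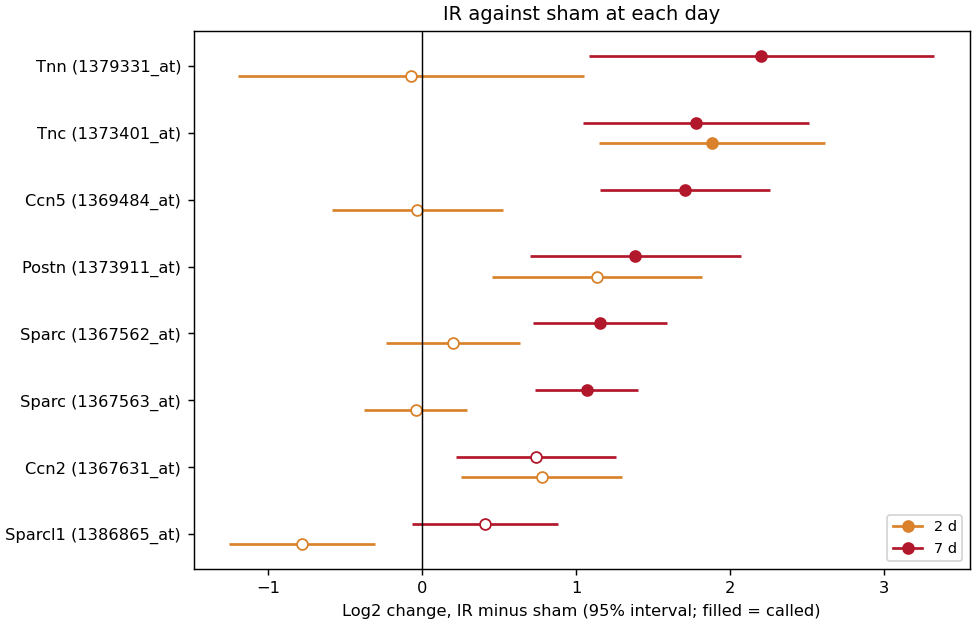
The log2 change between IR and sham rats (x axis) with its 95% interval is shown for the 8 probe sets tested, ordered by the 7 d change; filled points were called. Tnc is called at both days, whereas Ccn5 and both Sparc probe sets sit near 0 at 2 d and above 1 at 7 d. For Tnn the 2 d readings and those of 7 d sham replicates 81 and 82 are below the filter.

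The order of the members at 2 d was led by Tnc (1.88), followed by Postn (1.14) and Ccn2 (0.78); the other 5 probe sets lay between -0.78 (Sparcl1) and 0.20. The intervals of Tnc, Postn and Ccn2 overlapped, so that their order was not resolved. One of the 8 probe sets tested was called higher at 2 d and 0 lower, against 1.88% higher and 0.589% lower of all probe sets tested. IR lay above sham without overlap for 3 of the 8 (13.9% of all) and below for 1 (12.5% of all). The median change of the 8 was 0.08, against 0.003 over all.

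At 7 d the order was Tnn (2.20), Tnc (1.78), Ccn5 (1.71), Postn (1.38), Sparc (1.15 and 1.07), Ccn2 (0.74) and Sparcl1 (0.41). Of the 8 probe sets, 6 were called higher and 0 lower, against 6.22% and 5.84% of all probe sets tested. The same 6 lay above sham without overlap, against 16.6% of all. Tnn is one of the 6, owed its testing to the group where it was high, and was dim on 7 d sham replicates 81 and 82. The intervals of the first 5 genes overlapped, and their order was not resolved either. The median change was 1.27, against 0.007 over all. The count of members called was 4 when 7 d sham replicate 82, or 7 d IR replicate 44, was left out; Tnc, Ccn5 and both Sparc probe sets were called in each.

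Whether the IR effect itself differed between days was tested for each probe set. Leaving Tnn aside, the largest positive differences among members were those of Ccn5 (1.74, SE 0.37), Sparcl1 (1.19, SE 0.31) and Sparc (1.11, SE 0.22, on 1367563_at and 0.96, SE 0.29, on 1367562_at). None passed in limma: the adjusted p was 0.229 for Ccn5, 0.383 for Sparcl1, and 0.224 and 0.524 for Sparc in that order. Tnn did not pass either (adjusted p = 0.543), and its size is not given because of its dim 2 d readings. Before adjustment, 5 of the 8 had a limma p under 0.05: Ccn5, Sparcl1, both Sparc probe sets and Tnn. The share of all probe sets at that threshold is not given. At an adjusted p under 0.05, 0 of the 8 were called, against 0.0095% of all probe sets. Ccn5 passed without 7 d sham replicate 80 (2.08, adjusted p = 0.0201). Postn (0.25), Ccn2 (-0.04) and Tnc (-0.10) had intervals that included 0, the last from -1.14 to 0.94. The orders at 2 d and 7 d thus describe these arrays, and no member's difference between the IR effects of the days passed the test with all arrays.

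**Figure D3:**
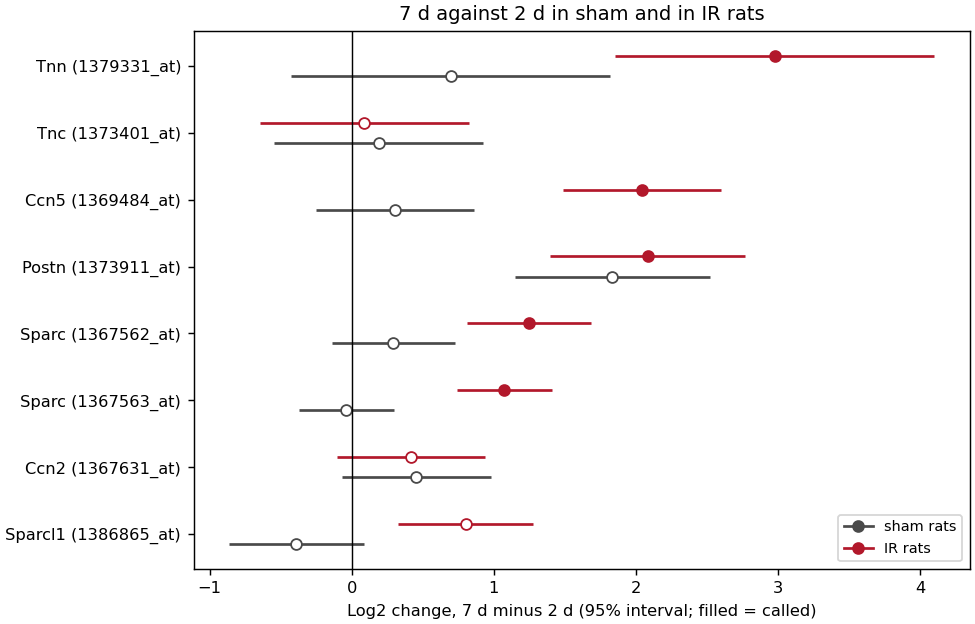
The log2 change from 2 d to 7 d (x axis) with its 95% interval is shown for the 8 probe sets in sham rats and in IR rats; filled points were called. Postn lies near 2 in both and is called in IR rats and not in sham rats. Ccn5 and Sparc are likewise called in IR rats alone, with sham changes of 0.30 for Ccn5 and 0.29 and -0.04 for Sparc. The points of Tnn rest on 2 d readings below the filter.

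The sham rats gave another order. From 2 d to 7 d, Postn led with 1.83. Tnn held place 2 on dim 2 d readings, and its size is not given. Ccn2 (0.46), Ccn5 (0.30), Sparc (0.29 and -0.04) and Tnc (0.19) came after, and Sparcl1 was lowest with -0.39. By limma 0 of the 8 were called higher, against 0.057% of all, and 1 of the 8 (Postn) had an unadjusted p under 0.05. Postn alone lay above without overlap, against 7.27% of all. Within IR rats 5 of 8 were called higher from 2 d to 7 d (Postn, Tnn, Ccn5 and both Sparc probe sets), against 2.45% higher and 0.997% lower of all, and 6 lay above without overlap, against 10.6% of all. Tnn is counted in both and was tested because of its 7 d IR arrays. All comparisons of days share arrays with those of IR and sham, so their calls are not independent.

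Across the 12 arrays, the log2 signals of Sparc and Ccn5 (Pearson r 0.921), of Tnn and Ccn5 (0.894), of Tnn and Sparc (0.894) and of Postn and Ccn5 (0.859) were the most alike among the members, with Sparc represented by 1367563_at. Tnc was most like Ccn2 (0.798), and Sparcl1 was unlike all others, with r from -0.233 to 0.352. The genes outside the set with the most similar pattern among 7713 were Mmp14 (0.986), Col1a1 (0.986) and Col4a1 (0.974) for Postn, and Sdc1 (0.938), Gusb (0.932) and Tpm4 (0.920) for Tnc. For Sparc they were Ccn3 (0.977), Sh3d19 (0.951) and C1qtnf1 (0.947), and for Ccn5 Ctsk (0.967), Mmp2 (0.960) and Fap (0.960). For Tnn they were Gpx8 (0.944), Gpm6b (0.927) and Cercam (0.921), for Ccn2 Rab31 (0.931), Alg14 (0.931) and Prrt1 (0.925), and for Sparcl1 Gabarapl1 (0.921), Rnf34 (0.856) and Slc38a3 (0.844). These are descriptions over 12 arrays in 4 groups, which share the group differences and the scaling of each array. Tnn read below the pseudocount and the filter on most arrays. Its r values, with members and with genes outside the set, therefore rest mainly on the few arrays where it was brighter. The place of Tnn among the closest pairs carries the same limit.

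Other matricellular genes were called at 7 d. Of 20 listed, 14 were on the array and 9 were tested. At 7 d 5 rose and 0 fell (median change 0.84), and at 2 d limma called 0, with 4 at an unadjusted p under 0.05 (median 0.15). Of all probe sets tested, 6.22% were called higher and 5.84% lower at 7 d. Fstl1, a secreted SPARC relative, rose by 1.35 at 7 d (SE 0.22, adjusted p = 0.00548), and its other probe sets by 1.90 and 1.76 (adjusted p = 0.00244 for each). Thbs4, the thrombospondin of muscle and tendon, rose by 1.24 (SE 0.27, adjusted p = 0.013), from a signal of 426 ± 139 in sham to 1266 ± 328 in IR rats (SD, n = 3). Ccn3 (NOV), another CCN protein, rose by 1.17 (SE 0.22, adjusted p = 0.0082), and Fbln5, which organises elastic fibres, by 0.77 (SE 0.16, adjusted p = 0.0117). With 1 array left out, 2 to 5 of the 9 were called higher at 7 d. Without 7 d sham replicate 82 it was 2, and Thbs4 (adjusted p = 0.0657) and Fbln5 (0.0539) were lost; without 7 d IR replicate 47 it was 3, and Fbln5 was lost (0.0509). The calls of Fstl1 and Ccn3 held without any 1 array.

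From 2 d to 7 d within IR rats, 6 of the 9 rose and 1 fell, against 2.45% higher and 0.997% lower of all. With 1 array left out, 3 to 6 rose and 1 fell. Thbs4 was lost without 2 d IR replicate 73 (adjusted p = 0.0885) or 76 (0.0601), or 7 d IR replicate 44 (0.0581) or 48 (0.103). Fbln5 was lost without 2 d IR replicate 73 (0.0526) or 76 (0.0596), or 7 d IR replicate 47 (0.0778). The calls of Ccn3 and Fstl1 held without any 1 array. The one that fell was Spp1 (osteopontin), named after its value was seen, with a decrease by 3.00 (-3.00, SE 0.53, adjusted p = 0.0054); it had 1.73 at 2 d between IR and sham and did not pass (adjusted p = 0.0856). In sham rats Spp1 was also lower at 7 d than at 2 d (-2.10) without passing (adjusted p = 0.196), and its difference between IR effects was -0.90 (adjusted p = 0.855).

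Among receptors, syndecan-1 was called at both days, at 2 d with dependence on single arrays. Of 30 listed integrins, syndecans and other receptors, 20 were on the array and 17 tested. At 2 d 1 rose and 0 fell, and at 7 d 4 rose and 1 fell (median 0.19 and 0.38). The shares of all probe sets tested were 1.88% higher and 0.589% lower at 2 d, and 6.22% and 5.84% at 7 d. Sdc1 (syndecan-1), a heparan sulfate receptor that binds tenascin-C, rose at both days, by 1.32 at 2 d (SE 0.19, adjusted p = 0.0128) and by 1.08 at 7 d (SE 0.19, adjusted p = 0.00764). Its mean signal was 488 ± 65 and 1525 ± 318 in 2 d sham and IR rats, and 770 ± 258 and 1816 ± 306 at 7 d (SD, n = 3). Cd93, an endothelial and myeloid receptor, rose by 1.00 at 7 d (SE 0.29, adjusted p = 0.0363), and Sdc2 by 0.68 (SE 0.14, adjusted p = 0.0117; its other probe set 0.65, adjusted p = 0.0148). Itga7, the laminin receptor subunit of striated muscle, fell by 0.63 (-0.63, SE 0.14, adjusted p = 0.0142; other probe set -0.56, adjusted p = 0.0268). The 2 d call of Sdc1 was lost without 2 d sham replicate 71 (adjusted p = 0.0655), 2 d sham replicate 72 (0.0522) or 2 d IR replicate 69 (0.055), and its 7 d call held without any 1 array, as did that of Sdc2. Itga7 was lost without 7 d sham replicate 82 (0.0539) or 7 d IR replicate 44 (0.0633). Cd93 was lost without any 1 of the 6 arrays of 7 d (0.0609 to 0.134). Its 7 d sham readings, 254.4 to 460.1, also lay below the filter on dim signals. The 7 d IR arrays of Cd93 (689 to 1018.1) were alone enough for it to be tested, so its choice for testing already favoured a difference.

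Of 31 listed inducers, meaning TGF-beta genes and serum or stretch responsive regulators, 22 were tested; at 2 d limma called 0, with 3 at an unadjusted p under 0.05, and at 7 d 3 rose and 0 fell (median 0.02 and 0.14). They were Ltbp2, Ltbp3 and the ligand Tgfb3. Ltbp2 (1.80, SE 0.43, adjusted p = 0.0188) and Ltbp3 (0.87, SE 0.19, adjusted p = 0.014) hold or resemble holders of latent TGF-beta. Tgfb3 rose by 0.81 (SE 0.22, adjusted p = 0.0323). The 7 d sham readings of Ltbp2, 106.6 to 427.6, lay below the filter on dim signals. Its 7 d IR arrays (723.8 to 2403.6) were alone enough for it to be tested, so its choice for testing already favoured a difference. Of 19 listed YAP-TEAD and stretch targets, 16 were tested; at 2 d limma called 0, with 5 at an unadjusted p under 0.05, and at 7 d Myof, a membrane repair protein, rose by 0.86 (SE 0.23, adjusted p = 0.0284) and Dlc1 fell by 0.54 (-0.54, SE 0.13, adjusted p = 0.0196). The median of that list was 0.11 at 2 d and 0.17 at 7 d. Its 1 higher and 1 lower of 16 at 7 d lay near the shares of all probe sets tested, 6.22% higher and 5.84% lower. The inducers had 3 higher and 0 lower of 22 against the same shares, with Ltbp2 among the 3. For the 2 d counts at an unadjusted p under 0.05 no share of all probe sets is given, so they have no background. Each of these 5 calls was lost without 7 d sham replicate 82 (adjusted p = 0.0838 for Ltbp2, 0.0733 for Ltbp3, 0.119 for Tgfb3, 0.114 for Myof and 0.0878 for Dlc1). Other arrays of 7 d also ended calls: replicate 48 for Ltbp2 (0.07), Tgfb3 (0.112) and Myof (0.0584), replicate 47 for Ltbp3 (0.0529), Tgfb3 (0.118), Myof (0.0593) and Dlc1 (0.0562), replicate 44 for Myof (0.105) and Dlc1 (0.0552), and sham replicate 81 for Tgfb3 (0.0812) and Myof (0.0918).

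**Figure D4:**
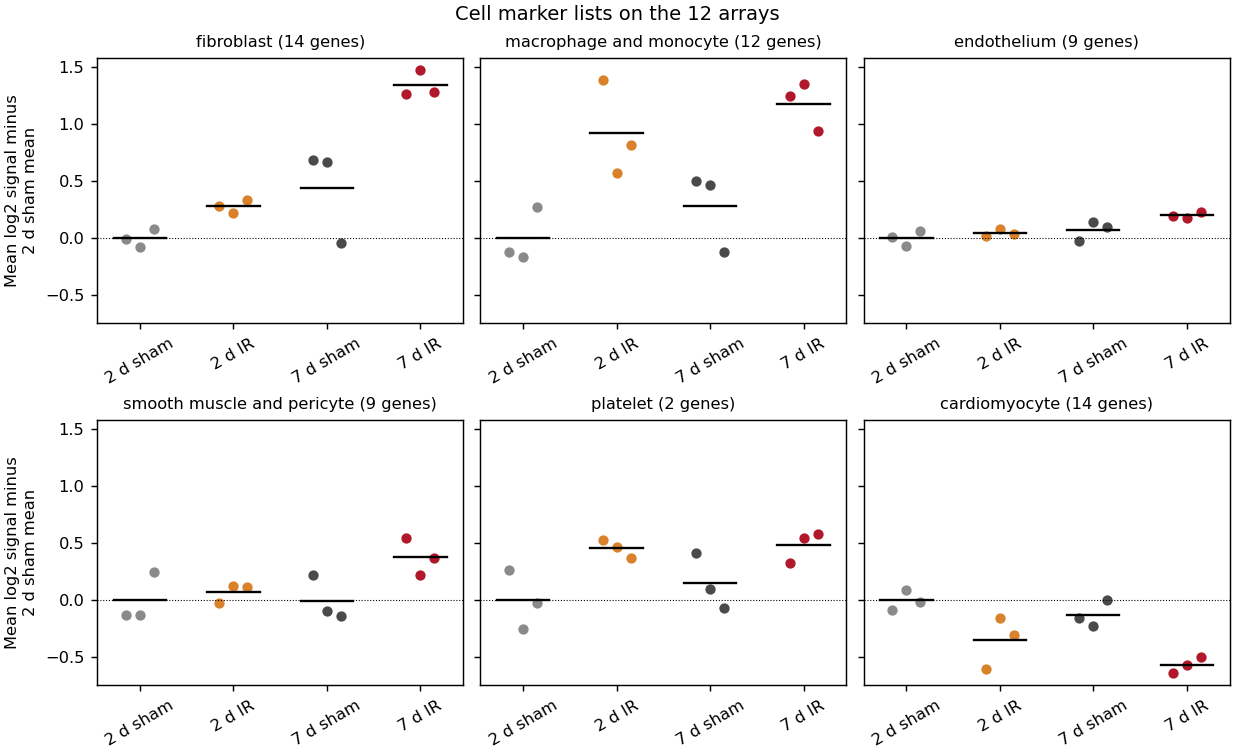
For each of 6 marker lists the mean log2 signal over its genes, minus the 2 d sham mean, is plotted for every array, with group means as lines. The fibroblast list stands highest on the 7 d IR arrays and lowest among 7 d sham arrays on replicate 82, and the macrophage list is raised on IR arrays of both days.

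Markers of other cell types moved with these results. The fibroblast list (14 genes) lay at -0.08 to 0.08 on the 2 d sham arrays, 0.22 to 0.34 on 2 d IR, -0.04 to 0.69 on 7 d sham and 1.27 to 1.48 on 7 d IR arrays, as mean log2 differences from the 2 d sham mean. Its summed signal was 106673 to 124694, 124582 to 143398, 117263 to 189988 and 252282 to 318647 in that order of groups. Between IR and sham, 1.88% of all probe sets tested were called higher and 0.589% lower at 2 d, and 6.22% and 5.84% at 7 d. These shares also stand beside the counts of the marker lists below. Of the 14 fibroblast genes, limma called 0 at 2 d, with 4 at an unadjusted p under 0.05, and 9 rose at 7 d. The count at 7 d was 2 with sham replicate 82 left out, 3 with IR replicate 47 and 5 with IR replicate 44 left out. The 7 d sham arrays 80 and 81, high for Postn, lay at 0.69 and 0.67 on this list, and replicate 82, low for Postn, at -0.04. The part that these markers have in the changes of Postn, Sparc, Ccn5 and Tnn was not tested, and in such bulk samples more cells of a type and more RNA per cell cannot be told apart.

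The macrophage and monocyte list (12 genes) lay at -0.16 to 0.28 on 2 d sham, 0.58 to 1.39 on 2 d IR, -0.12 to 0.51 on 7 d sham and 0.94 to 1.35 on 7 d IR arrays, and 7 rose at 2 d and 9 at 7 d. The count at 2 d was 1 when 2 d sham replicate 71 or 72, or 2 d IR replicate 69, was left out. At 7 d it was 0 with sham replicate 82 left out, 4 with IR replicate 44 and 5 with IR replicate 47 left out. Its summed signal was 34921 to 52378, 73197 to 101122, 37252 to 61578 and 84304 to 101432 in these groups. Like Tnc, it was higher in IR at both days, and its part in the change of Tnc was not tested. The cardiomyocyte list lay at -0.60 to -0.15 on 2 d IR and -0.64 to -0.50 on 7 d IR arrays, with 1 and 7 of 14 genes lower (0 to 6 and 1 to 9 with 1 array left out; 1 at 7 d without sham replicate 82, 2 without IR replicate 44 and 3 without IR replicate 47). Platelet markers, relevant to thrombospondin, had 2 genes tested (median 0.46 at 2 d), while Ppbp and Gp5 were on the array and not tested. Of the 2, Pf4 alone was called higher at 2 d (0.90, SE 0.18, adjusted p = 0.0274). That call was lost without 2 d sham replicate 71 (0.0707), 72 (0.0989) or 74 (0.0556) or 2 d IR replicate 69 (0.147).

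The endothelial list (9 genes, -0.07 to 0.23 over all arrays) had 0 genes called at either day by limma, with 1 at an unadjusted p under 0.05 at each. The smooth muscle and pericyte list (9 genes) had 0 at 2 d, with 2 at an unadjusted p under 0.05, and 2 higher at 7 d (0 to 4 with 1 array left out, 0 without sham replicate 82). Mesothelial markers (2 genes) had 0 called at either day and lay at 0.49 to 1.67 on the 7 d arrays against -0.38 to 0.60 on those of 2 d, IR and sham together. On 7 d sham replicates 80, 81 and 82 the mesothelial list lay at 1.135, 1.251 and 0.4949, and its part in the sham difference of Postn was not tested. Atrial markers (4 genes) had 0 called at 2 d (1 at an unadjusted p under 0.05) and 1 lower at 7 d (0 when sham replicate 81 or 82, or IR replicate 47 or 48, was left out). This list lay at -0.68 to 0.42 on 2 d sham, -0.71 to -0.42 on 2 d IR, 0.65 to 1.92 on 7 d sham and -0.24 to 0.92 on 7 d IR arrays, and its part in the sham difference of Postn was not tested. There were, among skeletal muscle markers (1 gene, Myh1), 0 and 1 lower (0 when sham replicate 81 or 82, or IR replicate 47, was left out), and among lung (3 genes) and bone and cartilage markers (3 genes) 0 at both days; these last 2 lists, the mesothelial list and, at 2 d, Myh1 had 0 at an unadjusted p under 0.05. On the lung list 7 d IR replicate 44 lay at 1.31, against 0.11 and -0.13 for the other arrays of its group; this is the array with the highest Tnn and Postn signals, without which neither was called at 7 d, and the part of lung markers in both was not tested. As a sign of RNA integrity, the beta-actin probe sets of the 3′ and 5′ ends were compared; their log2 ratio (3′ to 5′) was 0.58 ± 0.23 in 7 d sham and 0.18 ± 0.06 in 7 d IR rats (SD, n = 3), and 0.20 ± 0.10 and 0.24 ± 0.07 at 2 d. For GAPDH it was 0.39 ± 0.07 in 7 d sham and 0.32 ± 0.05 in 7 d IR rats, and for hexokinase 0.95 ± 0.24 and 0.82 ± 0.16, and both overlapped between these groups. The part of RNA integrity in the 7 d results was not tested.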

How the data were processed

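Ventricular RNA of 12 rats was measured on a 1-colour Affymetrix rat array. The authors deposited MAS5 signal intensities on a linear scale, with MAS5 named in the submitters' processing notes without a version. Precision is limited by the 3 arrays per group. Probe sets were named from the platform annotation: 12789 had 1 gene symbol, 312 several and 2822 none.

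The 57 control probe sets were left out. A probe set was tested where its signal lay above its array's 40th percentile on at least 3 arrays, which left 10527. Values were log2(signal + 195), 195 being the median over arrays of the 20th percentile, so folds of dim genes are understated. All 12 arrays entered 1 limma 3.58.1 fit with a mean per group (R 4.3.3; eBayes with an intensity trend), and p-values of each of 5 comparisons were adjusted by Benjamini-Hochberg over all probe sets tested. The fit was tested on simulated data. Groups came from sample titles, since the design text names the 7 d sham group 2 times and the 2 d sham group not at all. Each array is 1 labelled rat, and p-values measure the spread between these arrays.

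All probe sets of all members are named. From each pathway list up to 4 called genes of largest absolute change per comparison of IR and sham are named, and for each member the 3 genes of highest Pearson r. Members and lists were chosen with earlier results of these data known. Marker lists covered fibroblasts, macrophages, platelets, endothelium, smooth muscle, cardiomyocytes, atrium, skeletal muscle, mesothelium, lung, and bone and cartilage. Alternatives were pseudocounts of 50 and 500, median centring, quantile normalization, no filter, no trend, only the groups compared, each array left out, and 2 d IR replicate 69 and 7 d sham replicate 82 left out together. Leaving out each array was extended to the gene lists after the data were seen. Counts at an unadjusted p under 0.05 are given without the share of all probe sets at that threshold.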

Additional observations from a re-analysis of the deposited data

Results flagged for a closer look

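Sparcl1 stood out because all 3 IR arrays of 2 d lay below the sham mean of their day and all 3 IR arrays of 7 d lay above theirs. The IR effect at 7 d minus that at 2 d was 1.19 on the log2 scale (SE 0.31), and the test of this difference did not pass in limma (adjusted p = 0.383; 0.186 to 0.654 when 1 array was left out).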

How the results depend on the processing

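Of the 12 member changes called, 9 were called under all 20 alternatives, and none of the 12 changed sign; 1 of the 9 is Tnn between the IR days, whose 2 d readings lie below the filter. With 3 rats a group, the number of calls depended on single arrays. Over the fits without 1 array, all probe sets called ranged from 2 to 521 at 2 d, 178 to 1462 at 7 d, 0 to 6 for the difference between days, 1 to 76 between the sham days and 192 to 440 between the IR days. Members called ranged from 0 to 3, 4 to 7, 0 to 1, 0 to 1 and 5 to 6 in the same order.

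At 2 d, 260 probe sets were called, against 77 with no filter, 68 with no trend and 73 without replicates 69 and 82. Members called were 4 with only the groups compared (Postn, Tnc, Sparcl1 and Ccn2) and 2 without replicates 69 and 82 (Postn and Tnc). At 7 d, 1270 were called, against 550 without both. For the difference between days 1 was called, against 0 with no filter, 0 with no trend and 0 without both. Between the sham days 8 were called, against 1 with no filter, 2 with no trend and 83 without both. There 1 member (Postn) was called with median centring and 1 without both. Between the IR days 363 were called, against 562 without both. Tnn at 7 d was not called without both (1.82, adjusted p = 0.0782). Median centring moved the share of higher among the calls at 2 d from 76.2% to 63.8%.

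Signs turned for changes near 0. Sparc (1367563_at) was 0.0448 at 2 d with quantile normalization and 0.0092 without both replicates, and 0.0365 and 0.133 between the sham days. With 1 array left out, the ranges were -0.17 to 0.0859 for Tnn, -0.149 to 0.0139 for Sparc (1367563_at) and -0.167 to 0.0783 for Ccn5 at 2 d. For the difference between days they were -0.24 to 0.54 for Postn, -0.42 to 0.47 for Tnc and -0.24 to 0.26 for Ccn2. Between the sham days they were -0.38 to 0.51 for Tnc, -0.19 to 0.13 for Sparc (1367563_at) and -0.0414 to 0.665 for Ccn5, and between the IR days -0.0301 to 0.214 for Tnc. The cause of these changes was not tested. No paired analysis was possible because the groups share no replicate numbers. Signals of Tnn at 2 d and on 7 d sham replicates 81 and 82 lay under the filter, as did those of Ccn1 on most arrays. This limits what can be said of both genes.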
